A study of Mus musculus with 3 samples.

Results

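Interferon response genes were followed in mouse yolk sac cells that had been sorted for VE-cadherin, an adhesion protein of endothelial cells, and CD45, a surface protein of blood cells. The set was defined by gene name and held 39 of the 36156 gene names on the array. All 39 had a probe on the array, with 49 of the 55668 probes measured on all arrays. Of the 39 genes, 36 had a probe bright enough to be tested, and 30 of these were well above background on all 3 arrays. RNA was labelled with Cy3 and hybridised to 1-colour Agilent arrays. The labels give 1 control sample, from E10.5 embryos, and 2 Tie-2-Etv2 samples. In the latter a transgene for Etv2, a factor of the ETS family that starts endothelial and blood fates in the embryo, was switched on by a Cre transgene that the labels name for Tie-2, a receptor of endothelial and some blood cells. All 3 samples carry the same strain label, a mixed background that includes B6/CBA, and none was treated after the sort. The labels state neither the age of the Tie-2-Etv2 embryos, nor how many embryos went into a sample, nor which transgenes the control lacked or carried. The question is how continued Etv2 expression bears on the transcripts of these blood precursors.

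Interferons are secreted when cells sense viral or other misplaced nucleic acid. Type I interferons bind a receptor whose kinases phosphorylate STAT proteins, which join IRF9 and bind the interferon-stimulated response element (ISRE) in the promoters of many antiviral genes. Some of these genes are also expressed at a low tonic level without infection, and macrophages are among the cells known for it.

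Levels below are log2 processed signal relative to the 75th percentile of the 22764 probes detected on all 3 arrays, so a level of 0 equals that percentile and -1 is 2-fold below it. That percentile lay at 1199 intensity units on Tie-2-Etv2 replicate 1 and at 2073 and 2092 units on the control and on replicate 2. The genes that define the sort and the transgene were above background on every array: Ptprc, which encodes CD45, differed from the control by -0.46, Cdh5, which encodes VE-cadherin, by 3.53, and Etv2 by 3.82. Differences were tested with limma over 26217 probes of 19652 genes. With 1 control array, the spread came from the Tie-2-Etv2 pair alone and the control was assumed to vary like it. Nothing in the labels says that the pair came from separate litters or pools, so the p-values may reflect technical spread alone. Permuting the 3 arrays exactly allows no p under 0.333.

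The interferon response genes lay mostly below the control. Among the 30 well above background on all 3 arrays, 21 were lower in both Tie-2-Etv2 arrays, 4 were higher in both and 5 differed in opposite directions; over all 17260 genes detected this way, 26.8% were lower in both and 45.2% higher in both. At least 2-fold lower in both arrays were 7 of the 30 (Oas1a, Oasl2, Parp14, Gbp3, Zbp1, Dhx58 and Irf5), where the share over all such genes was 3.44%. None of the 30 was 2-fold higher in both, where the share was 2.91%. The other 6 tested genes (Mx1, Mx2, Oas2, Oasl1, Ifit3 and Irf7) entered through the control array alone. They could only be tested because the control was bright, so that they were lower is no independent evidence; with them 27 of 36 were lower in both and 4 higher (30.9% and 42.5% of all tested genes), and 13 of 36 were 2-fold lower in both (6.64% of all).

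In limma's test with Benjamini-Hochberg adjustment over all probes, 0 of 36 genes passed 0.05, as did 0% of all genes; adjusted p ran from 0.199 to 0.985. At an unadjusted p under 0.05, 9 of the 30 detected on all arrays were lower, where all genes so detected gave 3.64%. Over the 36 the counts were 15 lower and 0 higher, beside 6.38% and 4.4% of all tested genes, but the other 6 of the 15 are the genes that entered through the control alone. The median difference was -0.80 over the 36, beside 0.067 over all tested genes. Over the 30 it was -0.575, beside 0.095 over all genes when only probes well above background on all 3 arrays were tested. For 13 of the 30, both Tie-2-Etv2 arrays lay below the control by more than they lay apart from each other, and for 1, Ifit2, above it; over all such genes the shares were 13.9% and 22.2%. The counts depended on the background correction: with normexp, which adds 50 units to each value and so shrinks the differences of dim probes, 3 of 36 were 2-fold lower (2.48% of all tested genes) and 1, Irf5, passed, as did 3.1% of all genes. With no filter on dim probes 5 of 39 passed, beside 1.22% of all genes. These 5 (Ifit3, Mx1, Mx2, Oas2 and Oasl1) are again genes detected on the control but not on both Tie-2-Etv2 arrays. With normexp limma took each probe's spread wholly from that of all probes. With no filter it did so mostly (20.1 prior degrees of freedom, beside 2.93 as reported). A pass in these settings thus says little of a gene's own spread.

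**Figure D1:**
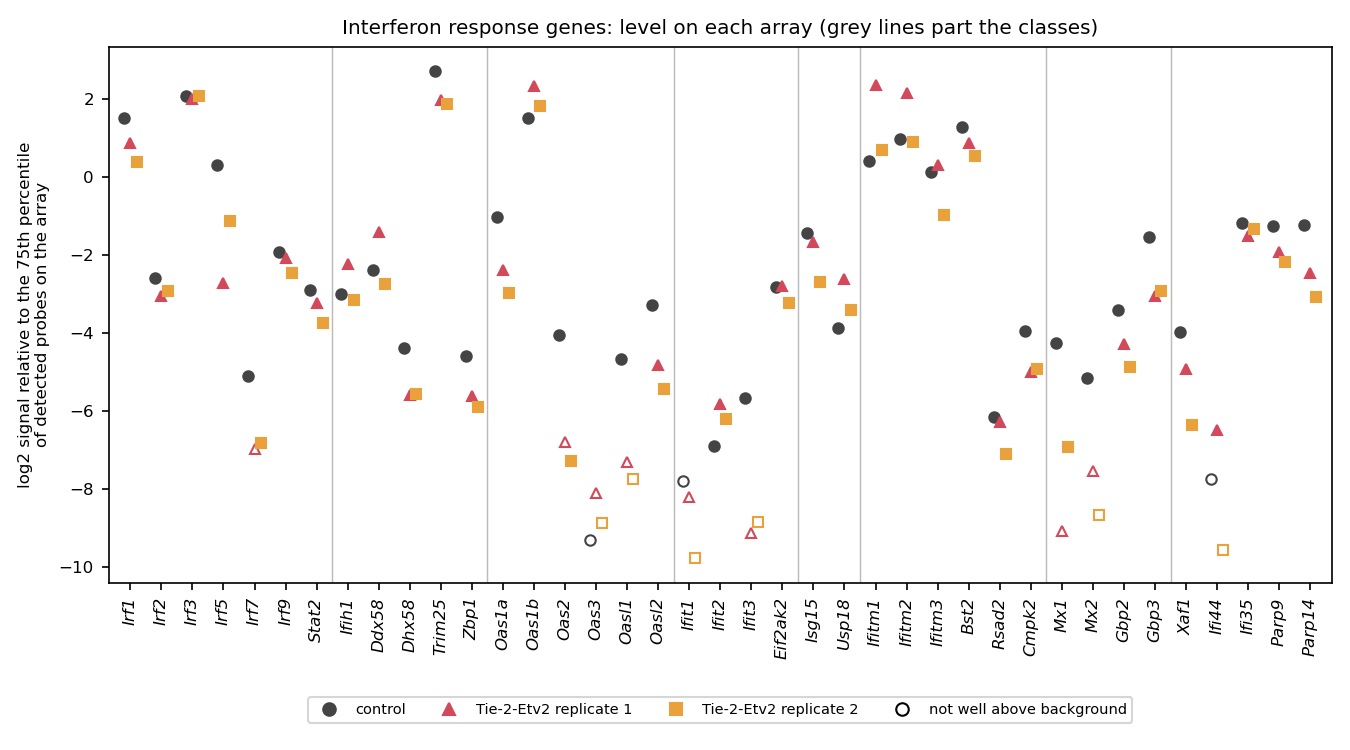
Level of each interferon response gene on the control array and both Tie-2-Etv2 arrays, as log2 signal relative to the 75th percentile of detected probes, by class; open symbols are not well above background. The control lies above both Tie-2-Etv2 arrays for the tested Gbp, Mx and Parp genes and for all tested Oas genes but Oas1b, while the 3 values of Irf3 lie together at 1.996 to 2.09.

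**Figure D2:**
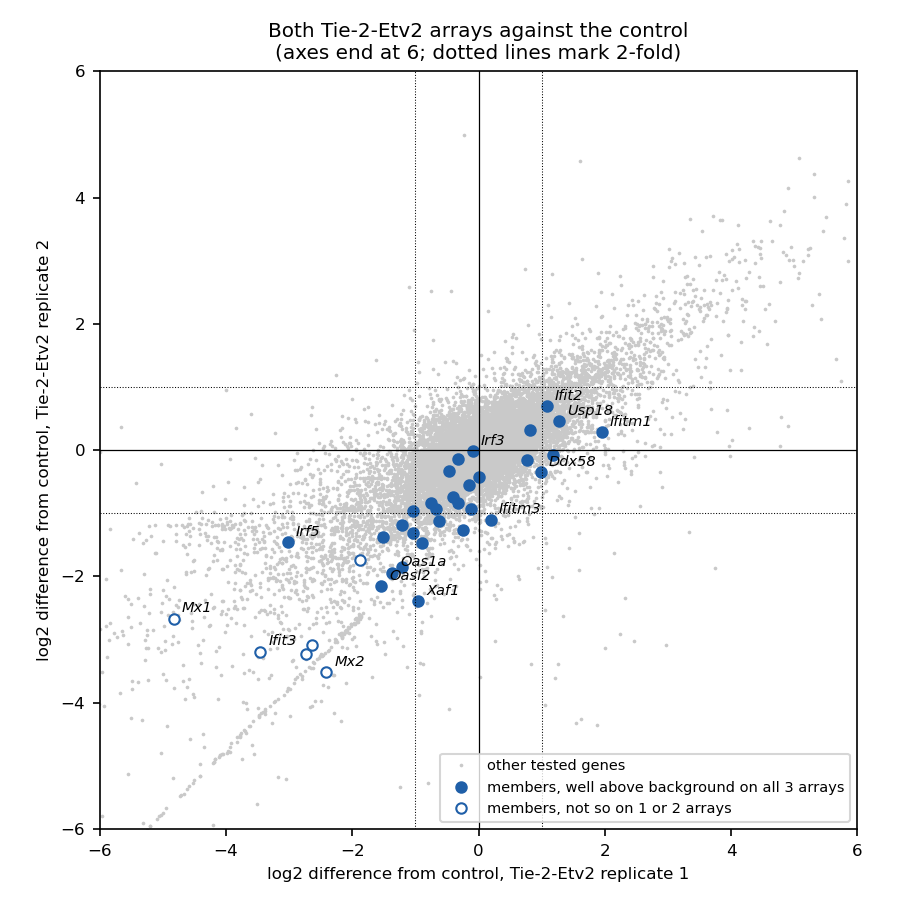
Log2 difference from the control on Tie-2-Etv2 replicate 1 (horizontal) and replicate 2 (vertical), for the 36 tested interferon response genes (blue) and all other tested genes (grey); dotted lines mark 2-fold, and open blue circles are genes not well above background on 1 or 2 arrays. Of the 36, 27 lie below 0 on both axes and 4 above 0 on both.

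The 6 transcription factors detected on all arrays were lower on each Tie-2-Etv2 array, as were 26.8% of all genes so detected, and 1 of them, Irf5, by 2-fold or more (3.44% of all). The remaining one, Irf7, was tested through the control alone. Irf5, which acts downstream of Toll-like receptors in myeloid cells, had a level of 0.31 in the control, -2.71 on replicate 1 and -1.14 on replicate 2. Both Tie-2-Etv2 arrays were low, and they differed from each other by 1.57. The difference was -2.24 ± 0.76 (SE; limma, adjusted p = 0.453). Its probe lies at chr6:29486901-29486960 (mm9). Irf7, the factor that amplifies type I interferon production, stood at -5.10 in the control and -6.83 on replicate 2, a 3.32-fold lower level, and was at least 3.33-fold lower on replicate 1, which did not detect it. Irf1, the classical target of interferon-gamma, stood at 1.51, 0.88 and 0.38 on the control, replicate 1 and replicate 2, a difference of -0.88 ± 0.39 (SE) that did not pass. Irf3, the constitutive factor that is activated by phosphorylation, stood at 2.09, 1.996 and 2.08, a difference of -0.055 ± 0.32 (SE). Stat2, Irf9 and Irf2, an antagonist of Irf1, gave -0.58, -0.36 and -0.40 respectively.

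Promoters were read to show where the element bound by these factors lies. Of the 39 genes, 30 matched the RefSeq promoter table of GRCm38.p6, which gives 250 bases before and 50 after each gene's start. The ISRE core was searched on both strands as GAAA followed, after any 2 bases (NN), by GAAA again, with overlapping matches counted. It was present in 16 of the 30, or 53.3%, against 3.99% of all 27025 genes in the table. The gamma-activated site, TTCNNNGAA, which reads the same on both strands in this form, was present in 8 of the 30, or 26.7%, against 9.55%. The 170 bases before the start are printed for 7 genes with the ISRE core, which are shown because they cover the antiviral classes described below; capitals mark the core, which appears as TTTC, NN and TTTC when on the other strand.
Isg15: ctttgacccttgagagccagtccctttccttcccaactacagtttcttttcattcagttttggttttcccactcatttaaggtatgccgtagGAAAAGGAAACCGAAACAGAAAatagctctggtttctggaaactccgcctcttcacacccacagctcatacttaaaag
Oas1a: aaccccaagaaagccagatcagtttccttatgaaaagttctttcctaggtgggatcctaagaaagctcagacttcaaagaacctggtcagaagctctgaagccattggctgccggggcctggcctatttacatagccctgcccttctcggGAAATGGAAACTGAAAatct
Gbp2: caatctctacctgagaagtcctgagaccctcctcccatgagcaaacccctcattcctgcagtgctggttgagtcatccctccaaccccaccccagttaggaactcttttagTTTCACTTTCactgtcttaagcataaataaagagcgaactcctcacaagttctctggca
Gbp3: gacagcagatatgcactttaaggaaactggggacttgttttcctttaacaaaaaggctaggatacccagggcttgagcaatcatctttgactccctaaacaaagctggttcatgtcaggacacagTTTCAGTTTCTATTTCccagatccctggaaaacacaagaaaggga
Ifit3: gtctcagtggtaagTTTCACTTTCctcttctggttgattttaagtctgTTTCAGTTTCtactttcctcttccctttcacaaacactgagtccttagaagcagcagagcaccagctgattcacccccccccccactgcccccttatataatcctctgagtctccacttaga
Ifit1: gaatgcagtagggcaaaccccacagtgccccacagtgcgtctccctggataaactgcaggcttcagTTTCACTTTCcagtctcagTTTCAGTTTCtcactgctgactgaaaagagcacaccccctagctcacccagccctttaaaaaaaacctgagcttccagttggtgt
Bst2: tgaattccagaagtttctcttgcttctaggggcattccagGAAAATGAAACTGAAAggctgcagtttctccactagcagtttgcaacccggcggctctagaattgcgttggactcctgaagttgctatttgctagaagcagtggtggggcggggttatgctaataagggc

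These stretches lie, on GRCm38.p6, at chr4:156200819-156200988 (Isg15), chr5:120907526-120907695 (Oas1a), chr3:142620493-142620662 (Gbp2), chr3:142559874-142560043 (Gbp3), chr19:34583359-34583528 (Ifit3), chr19:34640719-34640888 (Ifit1) and chr8:71537473-71537642 (Bst2); Isg15, Oas1a and Bst2 are on the minus strand and the others on the plus strand. Isg15 held 3 overlapping cores, starting at positions -78, -72 and -66 from the gene's start. Oas1a held cores at -20 and -14, and Bst2 at -130 and -124. The pair in Ifit3 lay apart, at -156 and -122, as did the pair in its neighbour Ifit1, at -104 and -85. Of the 14 tested genes with it, 3 were 2-fold lower in both arrays and the median difference was -0.55. Of the 13 tested genes whose windows lacked it, 4 were 2-fold lower and the median was -0.88. The 9 genes with no entry in the table held 6 of the 13 that were 2-fold lower, with a median of -1.20, so this split covers only some of the lower genes. Over all tested genes the share 2-fold lower was 6.64%. The counts also hold the genes tested through the control alone, whose being lower is no independent evidence. These were Ifit3 with the core, Oasl1 and Irf7 without it, and Mx1, Mx2 and Oas2 with no entry. A match is only a match of letters, and a window without one says nothing of elements outside it. Those 9 genes were Oas1b, Oas2, Mx1, Mx2, Usp18, Dhx58, Parp9, Parp14 and Zbp1.

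The sensors of nucleic acid gave unlike values. Dhx58, which encodes LGP2, a regulator of the RNA helicase sensors, stood at -4.37 in the control and at -5.59 and -5.56 on replicates 1 and 2. The Tie-2-Etv2 arrays lay 0.025 apart, and the difference was -1.20 ± 0.32 (SE; limma, adjusted p = 0.349). Zbp1, a sensor of Z-form nucleic acid, stood at -4.60, -5.63 and -5.91, a difference of -1.17. Dhx58 and Zbp1 had signals of 24.2 to 100 units, and with normexp they gave -0.437 and -0.329. The helicase sensors themselves differed in opposite directions on the 2 replicates. Ddx58, which encodes RIG-I, was 0.98 above the control on replicate 1 and 0.35 below it on replicate 2 (-0.35). Ifih1, which encodes MDA5, gave 0.77 and -0.16. The mean differences were 0.316 ± 0.664 (SE) for Ddx58 and 0.303 ± 0.515 (SE) for Ifih1. Trim25, a ubiquitin ligase of the RIG-I pathway, stood at 2.72, 1.97 and 1.88, a difference of -0.79, and its other tested probe gave -0.30. Second probes of Ddx58, Ifih1 and Zbp1 were not well above background on any array.

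The oligoadenylate synthetases, which make short oligoadenylates when they bind double-stranded RNA, held some of the largest differences. Oas2 and Oasl1 were tested through the control alone, so that they were lower is no independent evidence. Oas1a stood at -1.02 in the control, -2.39 on replicate 1 and -2.96 on replicate 2. Both Tie-2-Etv2 arrays lay below the control. Its log2 difference was -1.65 ± 0.41 (SE; limma, adjusted p = 0.325), or 2.58-fold lower on the first Tie-2-Etv2 array and 3.83-fold on the second; its other probe gave -1.64. Oasl2, a relative, stood at -3.28, -4.83 and -5.43 and was 3.6-fold lower. Oas2 stood at -4.06 in the control and -7.29 on replicate 2, 9.35-fold lower. Replicate 1 did not detect it and was 6.68-fold lower as measured. Oasl1, a relative that restrains translation of Irf7, was well above background on the control alone, at -4.66, and was at least 5.75-fold lower in the mean of both Tie-2-Etv2 arrays (4.49-fold and 7.37-fold). Here and below, a bound sets the bright array against the dim array's lowest detected level. Where the dim value itself lay above that level, as for Oas2 on replicate 1, the measured fold is given and is no bound.

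Oas1b went the other way. It stood at 1.51 in the control and at 2.33 and 1.82 on replicates 1 and 2, a difference of 0.565 ± 0.39 (SE); its second probe gave 0.017. The Oas1a, Oas1b and Oas2 probes lie in 1 stretch of chromosome 5 (mm9), Oas2 at chr5:121180343-121180402, Oas1b at chr5:121274109-121274168 and Oas1a at chr5:121346735-121346794. Oas3, in the same stretch, was not well above background on any array. The copies of this family are alike, and whether each probe reads only its own copy was not tested.

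Among the inhibitors of translation, Ifit3 and Ifit2, neighbours on chromosome 19, gave differences of opposite sign. Ifit3 was tested through the control alone, so that it was lower is no independent evidence. Ifit3 was well above background on the control alone, at -5.67, and was at least 2.86-fold lower in the mean of both Tie-2-Etv2 arrays (2.23-fold and 3.67-fold). Its adjusted p of 0.199 in limma's test became 0.333 with dim values set to the lowest detected level. Ifit2 stood at -6.90 in the control and at -5.82 and -6.20 on replicates 1 and 2, a difference of 0.89 ± 0.36 (SE) at signals of 17.4, 21.2 and 28.5 units, among the dimmest that were detected. Ifit1 was not well above background on any array. Eif2ak2, the RNA-activated kinase PKR, gave 0.010 and -0.42.

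Isg15, a ubiquitin-like protein that is conjugated to other proteins during the response, and Usp18, the protease that removes it and restrains the receptor, also went opposite ways. Isg15 stood at -1.43 in the control, -1.68 on replicate 1 and -2.70 on replicate 2, a difference of -0.76 ± 0.55 (SE). The Tie-2-Etv2 arrays lay further apart from each other than replicate 1 lay from the control. Its second probe gave -0.89. Usp18 stood at -3.88, -2.61 and -3.42, a difference of 0.87 ± 0.48 (SE). Both missed the adjusted threshold in limma's test, with adjusted p of 0.791 and 0.674.

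The genes of membrane proteins that block viral entry gave unlike values on the Tie-2-Etv2 pair. Ifitm1 stood at 0.41 in the control, 2.36 on replicate 1 and 0.70 on replicate 2, 3.86-fold and 1.22-fold higher. Ifitm2 stood at 0.98, 2.15 and 0.90. Ifitm3 stood at 0.12, 0.315 and -0.98, so that replicate 2 alone was low. Ifitm3 has 10 spots on each array, and their log2 SD was 0.045 on the control, 0.049 on replicate 1 and 0.064 on replicate 2. This is the error of spots within an array and leaves out the spread between samples. Bst2, or tetherin, which holds budding virus at the cell surface, stood at 1.28, 0.87 and 0.54, a difference of -0.57 ± 0.35 (SE). Cmpk2 and Rsad2 make and use nucleotides against viruses and are neighbours on chromosome 12. Cmpk2 gave -1.03 and -0.96 on replicates 1 and 2, and Rsad2, which encodes viperin, gave -0.13 and -0.93 at signals of 15.3 to 28.9 units; with normexp Rsad2 turned to 0.11.

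Of the interferon-induced GTPases, Gbp2 and Gbp3 were detected on all arrays, and in both the Tie-2-Etv2 arrays lay below the control by more than they differed, as in 13.9% of all genes so detected. Mx1 and Mx2 were tested through the control alone. Gbp3, a guanylate-binding protein of the defence against intracellular pathogens, stood at -1.54 in the control and at -3.05 and -2.92 on replicates 1 and 2. The Tie-2-Etv2 values lay 0.137 apart, and the gene was 2.72-fold lower (limma, adjusted p = 0.294). Gbp2 stood at -3.40, -4.29 and -4.865, 1.86-fold and 2.76-fold lower. Mx1, a dynamin-like protein active against influenza viruses, stood at -4.25 in the control and -6.92 on replicate 2, 6.35-fold lower; replicate 1 did not detect it and was at least 5.97-fold lower. Mx2, its neighbour on chromosome 16, was above background on the control alone and was at least 4.12-fold lower in the mean (3.22-fold and 5.28-fold).

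Of the remaining genes, Parp14, an ADP-ribosyltransferase, stood at -1.24 in the control and at -2.46 and -3.09 on replicates 1 and 2, and was 2.89-fold lower. Parp9, its neighbour and partner, stood at -1.25, -1.925 and -2.17, a difference of -0.80 ± 0.34 (SE). Xaf1, an antagonist of the apoptosis inhibitor XIAP, gave -0.96 and -2.39, and Ifi35 gave -0.33 and -0.15. Ifi44 was well above background on replicate 1 alone and was not tested.

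The other genes of the pathway were counted from lists chosen by role. Over all tested genes, 6.64% were 2-fold lower in both arrays and 3.91% 2-fold higher. By any size, 30.9% were lower in both and 42.5% higher. In lists this short, 1 gene 2-fold lower says little of the list. Of 7 tested interferon genes, 1 was 2-fold lower in both arrays: Ifnb1, which encodes interferon-beta. It had signals of 139 units in the control and of 2.59 and 11.2 on replicates 1 and 2, not well above background there. Ifnb1 was at least 9.75-fold lower in the mean (7.61-fold and 12.5-fold). Its log2 difference of -4.30 became -1.265 with normexp. It was tested through the control array alone, so that it was lower is no independent evidence. No other interferon gene differed by 2-fold in both arrays. Of 8 tested receptor and kinase genes, Il10rb, the shared chain of the lambda interferon and interleukin-10 receptors, was the only one 2-fold apart in both arrays, at -1.73. The type I receptor genes Ifnar1 and Ifnar2 gave -0.85 and -0.64, the interferon-gamma receptor genes Ifngr1 and Ifngr2 gave -0.355 and -1.08, and the kinase genes Jak1, Jak2 and Tyk2 gave 0.925, 0.13 and 0.78. Of 12 adaptor genes 2 were 2-fold lower: Unc93b1, the chaperone of endosomal Toll-like receptors, at -1.45, and Ticam1, a Toll-like receptor adaptor, at -1.40. Of 6 other STAT and IRF genes tested, 1 was lower in both arrays and 4 were higher, none by 2-fold in both, with a median of 0.27; the lower one was Irf8, a factor of myeloid cells, at -2.51 on replicate 1 and -0.70 on replicate 2. Of 7 negative regulators 3 were lower in both arrays and 2 higher. Only 1 of the 7 was 2-fold lower in both, Socs3, at -2.40 (-3.05 on replicate 1, -1.75 on replicate 2).

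Of 55 tested genes in a wider list of interferon-induced genes outside the set, 12 were 2-fold lower in both arrays and 0 higher, beside 6.64% and 3.91% of all tested genes. The lower ones included Phf11a, Slfn8, Ifi27l2a, Rtp4, Slfn2, Parp12, Gbp4, Gbp5, Cxcl10, Tap1 and Gbp7. Phf11a, Slfn8, Gbp5, Parp12 and Gbp4 were tested through the control array alone, so that they were lower is no independent evidence. Parp12 and Gbp4 were above background on the control alone. Parp12 was 3.96-fold lower as measured, which is no bound, since its dim values lay above the lowest detected level. The bound for Gbp4, at least 1.07-fold, is below 2-fold. Cxcl10, a chemokine gene induced by interferons, had signals of 8320 units in the control and of 1460 and 3590 on replicates 1 and 2, a difference of -1.47. The median of this list was -0.43. With normexp 3 of the 55 were 2-fold lower, beside 2.48% of all tested genes. Among those well above background on all 3 arrays 7 were 2-fold lower, beside 3.44% of all genes so detected. None of these genes passed the adjusted threshold in limma's test, and the differences of the lower ones are from the same 3 arrays as those of the set.

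Genes that mark macrophages were lower in the same arrays. Over all tested genes, 6.64% were 2-fold lower in both arrays, 3.91% were 2-fold higher and 30.9% were lower by any size. Of 12 tested macrophage markers 12 were 2-fold lower in both, at a median of -4.31. Their summed signal, as a multiple of the 75th percentile, was 79.1 in the control, 5.01 on replicate 1 and 17.5 on replicate 2. Timd4 was not well above background on either Tie-2-Etv2 array, nor was Mertk on replicate 1, and Cd163 was not tested. In such sorted bulk samples fewer cells of a type and less RNA per cell cannot be told apart. The macrophage markers lay lower on replicate 1 than on replicate 2 in 11 of 12 cases, with medians of -5.39 and -2.96. The interferon response genes lay lower on replicate 2 in 23 of the 30 detected on all arrays (76.7%). Over all genes so detected the share was 56.2%. Medians over the 36, which include the 6 tested through the control alone, were -0.65 on replicate 1 and -1.03 on replicate 2. Endothelial markers were 2-fold higher in 8 of 12 cases, with summed signals of 10.8, 52.1 and 25.7 on the control, replicate 1 and replicate 2, and granulocyte and mast cell markers in 5 of 9, with 20.3, 53.4 and 54.5. Visceral endoderm markers were 2-fold lower in 8 of 8 cases, with summed signals of 27.1, 1.54 and 11.4. Mesenchyme markers were 2-fold lower in 5 of 6 cases. Erythroid markers were lower in both arrays in 6 of 6 cases, and 2-fold lower in 4 of these. Dendritic cell markers were 2-fold lower in 2 of 4 cases, with a median of -1.09. The other 2 were higher in both arrays by less than 2-fold. Summed signals of this list were 11.9, 11.5 and 13.4 on the control, replicate 1 and replicate 2. The part of any of these cell types in the interferon gene differences was not tested.

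**Figure D3:**
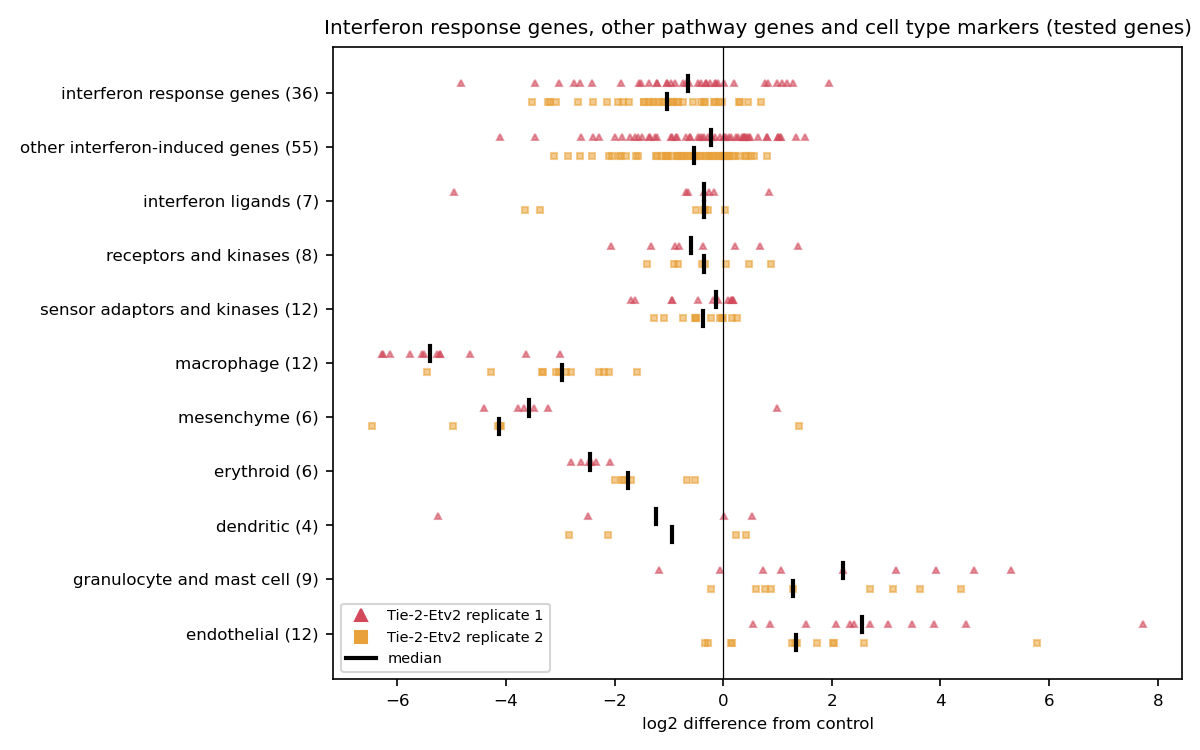
Log2 difference from the control of each tested gene on Tie-2-Etv2 replicate 1 (triangles) and replicate 2 (squares), for the interferon response genes, other genes of the pathway and cell type markers; black bars are medians and numbers in brackets count genes. The macrophage medians are -5.39 and -2.96. Those of the interferon response genes, -0.65 and -1.03, include the 6 genes tested through the control alone.

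**Figure D4:**
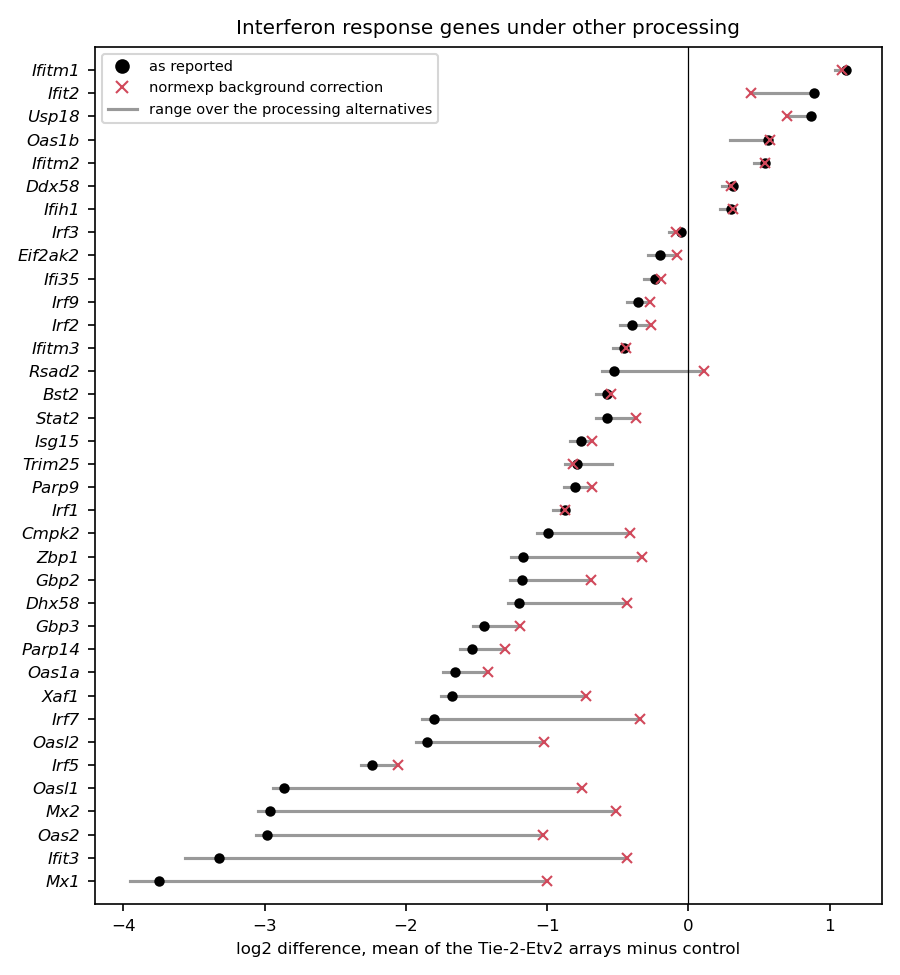
Log2 difference of each of the 36 tested interferon response genes (mean of the Tie-2-Etv2 arrays minus control) as reported (black), with normexp background correction (red crosses) and as a range over the other processing alternatives and normexp (grey lines). Genes that were dim on the Tie-2-Etv2 arrays, such as Ifit3 (-3.32 and -0.435) and Mx2 (-2.96 and -0.51), move most, while bright genes such as Irf5 (-2.24 and -2.06) and Oas1a (-1.65 and -1.42) move little.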

How the data were processed

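Spot intensity values were made by the authors with Agilent Feature Extraction (version 10.7 per the submitters' processing notes, 10.7.3.1 per the file headers), which subtracted background and applied no scaling between arrays; the array design is 028005 and probe positions are on mm9, per the file headers. A second deposited file, used as an alternative, holds log2 values. For 100% of 55668 probes, contrasts of 2 arrays were the same there as in the scanner signals to within 0.01 once a shift for each Tie-2-Etv2 array (0.756, -0.0161) was removed. Rows are centred on the median of the 3 arrays; columns have medians of 0, 0.138 and 0. The origin of the shifts is not given in the sources used here.

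Control spots and outlier spots (168 to 174 per array) were left out; no spot was saturated. Log2 processed signals of spots of 1 probe were averaged, and 13 probes that lost every spot on an array were dropped. The array medians were not equalised; each array was scaled on its 75th percentile over probes well above background on all 3 arrays, since only 43.5% of probes were detected on the dimmest array. Probes were tested where detected on the control or on both Tie-2-Etv2 arrays, with lmFit and eBayes of limma 3.58.1 (R 4.3.3), two-sided, after a check on simulated data. Moderation raised 1 residual degree of freedom to 3.93. A gene was represented by its brightest tested probe. Of the 49 member probes, 44 have an accession that RefSeq (GRCm38.p6) pairs with the same symbol. All members are named by class; other genes of the pathway are named where 2-fold apart in both arrays or, for receptors and kinases, throughout, the last chosen after their values were seen. Members and lists were chosen with earlier results of these data known. Alternatives covered scaling, background correction, filters, dim values, probe choice and replicates. Some genes of the wider pathway are not reported here.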

Additional observations from a re-analysis of the deposited data

Results flagged for a closer look

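The Ifi44 probe lay outside the tested probes and was well above background on Tie-2-Etv2 replicate 1 alone, at a processed signal of 13.3 intensity units, against 9.60 on the control and 2.75 on replicate 2, where it was not well above background.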

How the results depend on the processing

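No paired analysis was possible because the control has a single sample with no replicate number. The count of genes passing was 0 except with normexp (609; 1 of the interferon response genes) and with no filter on dim probes (442; 5 of them). With normexp, 3 of 36 were 2-fold lower in both arrays, 3 of the wider interferon-induced list were, the median was -0.436, and Rsad2 (0.114) and Gbp4 (0.104) changed sign. With only probes well above background on all 3 arrays, 7 interferon response genes and 7 of the wider list were 2-fold lower. Under the other alternatives with a test, 13 to 15 were 2-fold lower and the median ran from -0.875 to -0.79. With 1 Tie-2-Etv2 array left out, 14 to 18 were 2-fold lower, 0 to 4 higher, and the median ran from -1.03 to -0.651; Ifih1 (-0.160), Ddx58 (-0.351) and Ifitm2 (-0.082) changed sign without replicate 1 (0.766, 0.982 and 1.172 without replicate 2), as did Psmb8 (-0.194; 0.815 without replicate 2), and Eif2ak2 (0.010) and Ifitm3 (0.193) without replicate 2 (-0.418 and -1.099 without replicate 1). The count lying lower on replicate 2 than on replicate 1, recomputed under alternatives chosen after seeing the data, was 26 of 36 as reported, 25 to 33 of 36 under the alternatives with these genes, 23 of 30 with probes above background on all 3 arrays and 29 of 39 with no filter. Signal near background limits Ifit1, Ifit2, Ifit3, Oas2, Oas3, Oasl1, Mx1, Mx2, Irf7, Rsad2 and Ifi44. With normexp Oasl1 gave -0.755, Mx1 -0.998, Oas2 -1.03 and Irf7 -0.345. Dhx58 and Zbp1, though detected on all arrays, also shrank with normexp, to -0.437 and -0.329.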

Other observations

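Genes of MHC class I antigen presentation, which interferons also induce, were not lower as a block. Tap1, a subunit of the peptide transporter, differed from the control by -1.37 on replicate 1 and -1.23 on replicate 2, and H2-D1, a class I heavy chain, by -1.26 and -0.785. The partner of Tap1, Tap2, differed by 1.35 and 0.42. Tap1 was the dimmer of the pair, at 79.2, 17.7 and 34.1 units on the control, replicate 1 and replicate 2. With normexp the mean differences were -0.346 for Tap1 and 0.871 for Tap2. The immunoproteasome genes Psmb8, Psmb9 and Psmb10 gave mean differences of 0.31, -0.555 and 0.17, and H2-K1 and B2m, the shared light chain, gave -0.28 and -0.50. None passed the adjusted threshold in limma's test. These genes were chosen after their values were seen.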
